A study of Mus musculus with 24 samples.

Results

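The neuronal pentraxin genes Nptx1, Nptx2 and Nptxr were examined together with Npcd, a gene that overlaps Nptxr, and with Cbx6, the gene that overlaps the other end of Npcd. The 5 rows were taken by symbol from the count tables of mRNA and of ribosome-protected fragments (RPFs), which held 23845 and 20436 rows. The set was chosen by the RPF value of Npcd, which was lower after DHPG in these same libraries, and the other 4 rows were taken for their overlap or family membership. All 5 passed the filter on low counts, so they were among the 14516 genes tested in mRNA, the 12877 tested in RPFs and the 12785 tested for translational efficiency (TE, the RPF level relative to the mRNA level).

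Neuronal pentraxins are secreted or membrane-bound proteins of the pentraxin family that gather at excitatory synapses and bind AMPA-type glutamate receptors. NPTX1 and NPTX2 (also called NP1 and Narp) are secreted, and the Nptx2 gene is a known activity-induced gene. NPTXR, the neuronal pentraxin receptor, is anchored in the membrane and forms complexes with both. Cbx6 encodes a chromobox protein of Polycomb repressive complex 1, which compacts chromatin. Npcd stands for neuronal pentraxin with chromodomain, and its transcripts join the front part of Cbx6 to the back part of Nptxr.

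Hippocampal slices came from wild-type (WT) mice and from littermates heterozygous for a germline deletion of Tsc2, made by crossing CMV-Cre with Tsc2 flox animals and breeding on the C57BL/6J background. The mice were males of 28 to 42 days, CA3 was cut off, and slices of 6 mice were pooled for each lysate. Slices received 100 µM DHPG, an agonist of group 1 metabotropic glutamate receptors, for 5 min, or vehicle (artificial cerebrospinal fluid), and were then held in 100 µg/ml cycloheximide, which stalls ribosomes. Each of the 4 groups (WT vehicle, WT DHPG, Tsc2+/- vehicle and Tsc2+/- DHPG) gave 3 mRNA and 3 RPF libraries, 24 in all. The comparisons ask how expression at this locus differs between the genotypes and how it changes within minutes of receptor stimulation.

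Npcd had no base of its own. On GRCm38.p6, the mm10 build, the annotated Npcd gene runs on the minus strand of chr15:79786351-79834333, and covers Cbx6 at chr15:79823898-79834333 and Nptxr at chr15:79786351-79804709. Of 4873 exonic bases of Npcd, 4214 are also exons of Nptxr and 659 are also exons of Cbx6, which leaves 0. Of its 1410 coding bases, 873 are shared with Nptxr and 537 with Cbx6, in the same reading frame. By contrast, 609 of the 1482 coding bases of Nptxr and 708 of the 1245 coding bases of Cbx6 are in no other gene of the 3. Nptx1 lies at chr11:119538719-119547820 on the minus strand and Nptx2 at chr5:144545887-144557478 on the plus strand, away from this locus.

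**Figure D1:**
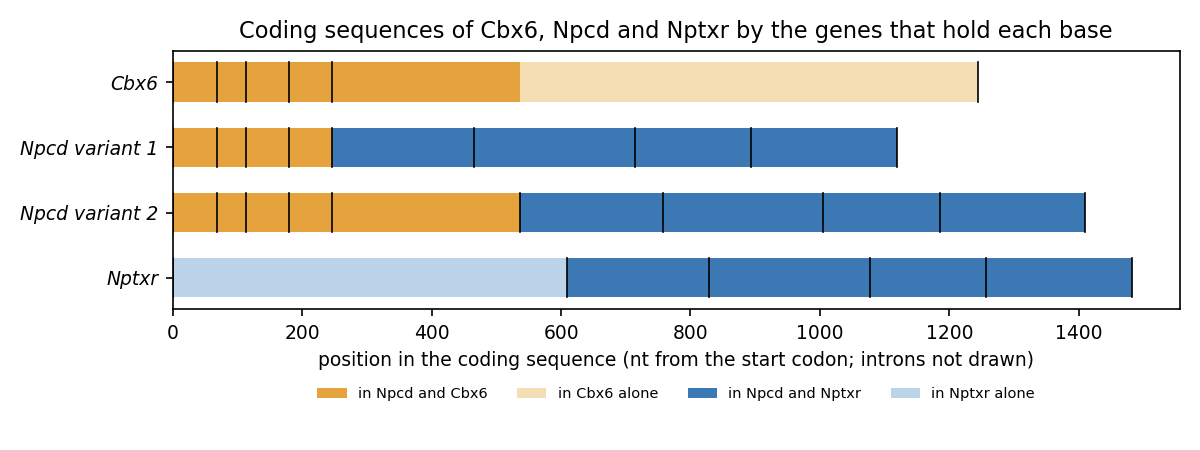
Coding sequences of Cbx6, the 2 annotated Npcd variants and Nptxr, drawn to scale in nt from the start codon without introns; black lines mark exon borders and colours mark which genes hold each base. Every coding base of Npcd is also in Cbx6 (537 bases in all) or in Nptxr (873 bases).

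Reads could be assigned to Npcd alone only where they crossed the junction that joins the Cbx6 part to the Nptxr part. The sequences around that junction are shown because only a read over these joined letters can be given to Npcd and to no other gene. In the lines below, from RefSeq on GRCm38.p6, the 15 lower-case bases end the upstream coding exon and the capitals are the first 15 bases of the coding exon that Npcd and Nptxr share, chr15:79794461-79794475.
Npcd variant 1: actttcctcctaaagCAGGAGCTCCCAGCC
Npcd variant 2: atcctgaacctgaagCAGGAGCTCCCAGCC
Nptxr: atcgagcgcatcgagCAGGAGCTCCCAGCC
Cbx6, into its last coding exon: actttcctcctaaaggcccgggcccaggcg
The lower-case part of Npcd variant 1 lies at chr15:79833512-79833526, that of variant 2 at chr15:79828688-79828702 and that of Nptxr at chr15:79803975-79803989. Each of these 3 junctions is in 1 gene, whereas the Cbx6 junction is also in Npcd variant 2 and shares its first 15 bases with Npcd variant 1.

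When the coding sequences, less 30 nt at each end, were cut into every possible stretch of 30 nt, about the length of an RPF, 53 of the 1347 stretches of Npcd (3.94%) were in Npcd alone. Another 816 were shared with Nptxr and 478 with Cbx6. The share found in the gene alone was 41.4% for Nptxr and 58.7% for Cbx6, and 100% for Nptx1 and Nptx2. With 75 nt stretches of whole transcripts, as a stand-in for mRNA reads, 143 of 4870 stretches (2.94%) were in Npcd alone, 15.04% of those of Nptxr and 89.1% of those of Cbx6. A read of Npcd that does not cross the junction fits a second gene equally well, and RSEM, the program the authors used for counting, divides such reads between genes by estimate. The values of Npcd, Nptxr and Cbx6 are uncertain to that extent, and results of their sum are given with them.

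Library totals ranged from 14801679 to 24067838 in mRNA and from 5296006 to 13613673 in RPFs. Tsc2 itself, the label check, stood at 128 to 137 CPM (read counts scaled to the size of each library) in the Tsc2+/- mRNA libraries and at 186 to 214 in the WT libraries, and its log2 difference in vehicle was -0.52 (SE 0.0543, edgeR adjusted p = 2.03e-07). Summed markers of CA1 pyramidal cells reached 1375 to 1474 CPM in mRNA, against 24.8 to 30.7 CPM for CA3 and 16.7 to 41.4 CPM for dentate granule markers. The dentate sum was 25.3 to 41.4 CPM in the WT libraries and 16.7 to 26.0 CPM in the Tsc2+/- libraries, while summed blood markers stood at 15.7 to 34.3 and 2.51 to 17.1 CPM. The part of both in the genotype values below was not tested. In bulk slices, fewer cells of a type and less RNA per cell cannot be told apart. In RPF replicates 2 and 3, 97.9% to 98.5% of the non-zero counts were even numbers, against 48.2% to 49.0% in RPF replicate 1 and 48.5% to 49.7% in mRNA. In those 8 even libraries, Npcd had an odd count in 5, Nptxr in 4 and Cbx6 in 5, whereas Nptx1 and Nptx2 had none. Odd counts there were uncommon: 798 of 13073 genes above 0 in all 8 libraries, or 6.10%, had any.

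Per kilobase, the order of the members differed between the assays. In WT vehicle slices the RPF level of Nptxr was 248 ± 73.8 CPM per kb of trimmed coding sequence (SD, n = 3), that of Nptx1 221 ± 24.3, that of Npcd 162 ± 7.34, that of Cbx6 131 ± 4.72 and that of Nptx2 90.6 ± 16.0. Nptxr and Nptx1 overlapped, and each of the other neighbours in this order was separated in all 3 libraries. In mRNA, Npcd had the highest level at 293 ± 13.0 CPM per kb of transcript, followed by Cbx6 at 124 ± 10.7, Nptx1 at 81.1 ± 3.34, Nptxr at 62.3 ± 38.0 and Nptx2 at 52.6 ± 2.19. The spread of Nptxr overlapped both of its neighbours there. Of the reads given to Npcd or Nptxr in WT vehicle slices, Npcd received 82.9% ± 8.61 in mRNA and 39.0% ± 7.05 in RPFs (SD, n = 3).

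With DHPG in WT slices, Npcd RPFs were lower in every library, whereas the groups overlapped for Nptxr and Cbx6. Npcd stood at 219, 208 and 228 CPM in the WT vehicle libraries and at 139, 155 and 147 CPM in the WT DHPG libraries (replicates 1, 2 and 3 in each case). The groups did not overlap, and the fitted log2 fold change was -0.57 (SE 0.0738, 95% interval -0.72 to -0.42). It is given without a test, because this contrast chose the gene. Of the other 4 members, 0 passed an adjusted p of 0.1 in edgeR or DESeq2, while edgeR called 4 of 12877 genes (0.0311%). At an unadjusted p under 0.05 were 0 of these 4 members and 6.71% of all genes.

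Nptxr RPFs were 470, 317 and 270 CPM in WT vehicle and 422, 371 and 352 CPM in WT DHPG. The vehicle libraries spanned more than the whole range of the DHPG libraries, with replicate 1 of vehicle the highest of the 6. The fitted log2 change was 0.14 (SE 0.0801, edgeR quasi-likelihood adjusted p = 0.769) and did not pass the test. Without the WT vehicle library of replicate 1 it was 0.28 with an adjusted p of 0.0762, within a range of 0.0762 to 0.9999 over the alternatives. Cbx6 RPFs ranged from 151 to 162 CPM in WT vehicle and from 150 to 160 CPM in WT DHPG, and the fitted change was -0.02 (SE 0.066, adjusted p = 0.975).

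For the 3 genes of the locus together, the groups overlapped. Summed RPFs were 851, 679 and 648 CPM in WT vehicle and 721, 678 and 649 CPM in WT DHPG, so that replicates 2 and 3 of both groups nearly coincided and replicate 1 of vehicle stood above the rest. The fitted log2 fold change of the sum was -0.08 (SE 0.0529, 95% interval -0.19 to 0.03). Npcd and Nptxr together, the genes that share 873 coding bases, were 689, 525 and 497 CPM in vehicle and 560, 526 and 499 CPM in DHPG, a log2 fold change of -0.10 (95% interval -0.22 to 0.02). With 1 replicate number left out of every group, the change of this pair ranged from -0.16 to 0.0015 and that of the 3-gene sum from -0.12 to -0.0027. The values nearest 0 were those without replicate 1. Npcd and Cbx6 together were 380, 362 and 378 CPM in vehicle and 299, 307 and 297 CPM in DHPG, with no overlap and a log2 fold change of -0.31 (95% interval -0.43 to -0.20). All of these sums contain Npcd, so they are given as descriptions without a test. Their intervals, here and below, are not adjusted for the number of genes.

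**Figure D2:**
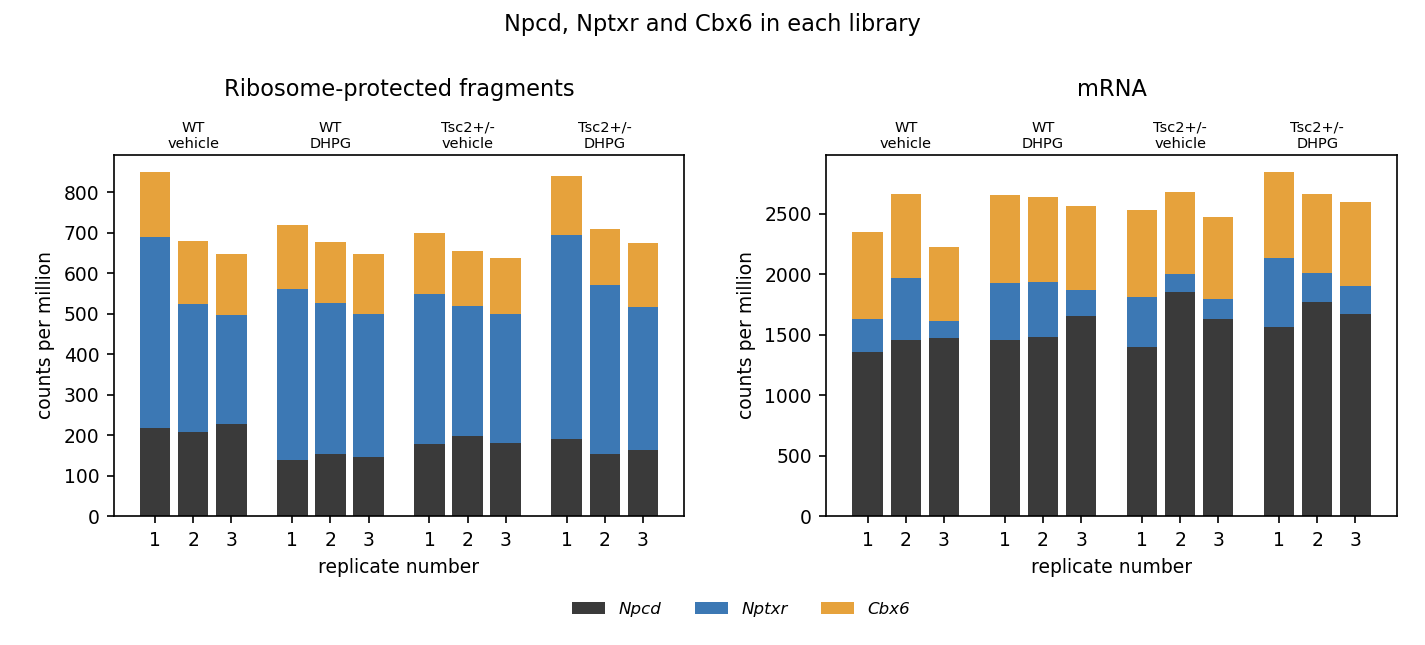
RPF (left) and mRNA (right) CPM of Npcd, Nptxr and Cbx6, stacked for each of the 12 libraries of an assay; each bar is 1 library, ordered by group and replicate number. In RPFs the Npcd segment is shorter in all 3 WT DHPG bars (139 to 155) than in the WT vehicle bars (208 to 228). The WT bars of replicates 2 and 3 have nearly the same height with vehicle and with DHPG (648 to 679). The WT bar of replicate 1 is at 851 with vehicle and at 721 with DHPG.

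With DHPG in Tsc2+/- slices, the libraries of both Npcd and Nptxr overlapped those of vehicle. Npcd was 177, 198 and 180 CPM in Tsc2+/- vehicle and 191, 154 and 163 CPM in Tsc2+/- DHPG, a log2 fold change of -0.13 (95% interval -0.28 to 0.02). Nptxr was 371, 322 and 319 CPM in vehicle and 505, 418 and 355 CPM in DHPG. By replicate number, Nptxr was higher with DHPG in 3 of 3 pairs, and Npcd was lower in 2 of 3. The log2 fold change of Nptxr was 0.32 (SE 0.0801), with an unadjusted p of 0.000689 and an adjusted p of 0.9999 in edgeR's quasi-likelihood fit, so it did not pass. It passed with an adjusted p of 0.00185 without the WT vehicle library of replicate 1, of 0.00889 when only the groups compared were fitted, and of 0.0737 without replicate 3, within a range up to 1 over the alternatives. With all libraries fitted, 0 of the 5 members and 0 of 12877 genes (0%) were called, by edgeR as by DESeq2. At an unadjusted p under 0.05 in edgeR were 1 member, Nptxr, and 4.03% of all genes. The 3-gene sum was 700, 656 and 638 CPM in vehicle and 841, 710 and 676 CPM in DHPG, a log2 fold change of 0.15 (95% interval 0.05 to 0.26). It contains Npcd and is given without a test.

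The change with DHPG was compared between genotypes through the interaction term. For Npcd it was 0.45 on the log2 scale (SE 0.105), a description for the same reason as above. For the 3-gene sum, which contains Npcd, it was 0.24 (95% interval 0.08 to 0.39), also without a test. For Nptxr it was 0.19 (SE 0.113, edgeR adjusted p = 0.998). The interaction was called for 0 of 12877 genes (0%) in edgeR, and for 0 of the 4 members other than Npcd by edgeR or DESeq2. At an unadjusted p under 0.05 were 0 of these 4 members and 3.81% of all genes. Averaged over both genotypes, the DHPG difference was -0.35 for Npcd RPFs (SE 0.0523), without a test, and 0.23 for Nptxr RPFs (SE 0.0566, adjusted p = 0.282). That of the 3-gene sum was 0.04 (95% interval -0.04 to 0.11). DESeq2 placed the averaged Nptxr change past the threshold (0.23, adjusted p = 0.0777), and so did edgeR without the WT vehicle library of replicate 1 (0.30, adjusted p = 1.94e-05). The adjusted p of Nptxr ranged up to 0.9998 over the alternatives. Of the 4 members other than Npcd, edgeR called 0 and DESeq2 called 1, Nptxr. Of all 12877 genes, edgeR called 4 (0.0311%) and DESeq2 called 15. In edgeR, Nptxr was also the 1 of these 4 members with an unadjusted p under 0.05, beside 6.82% of all genes.

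**Figure D3:**
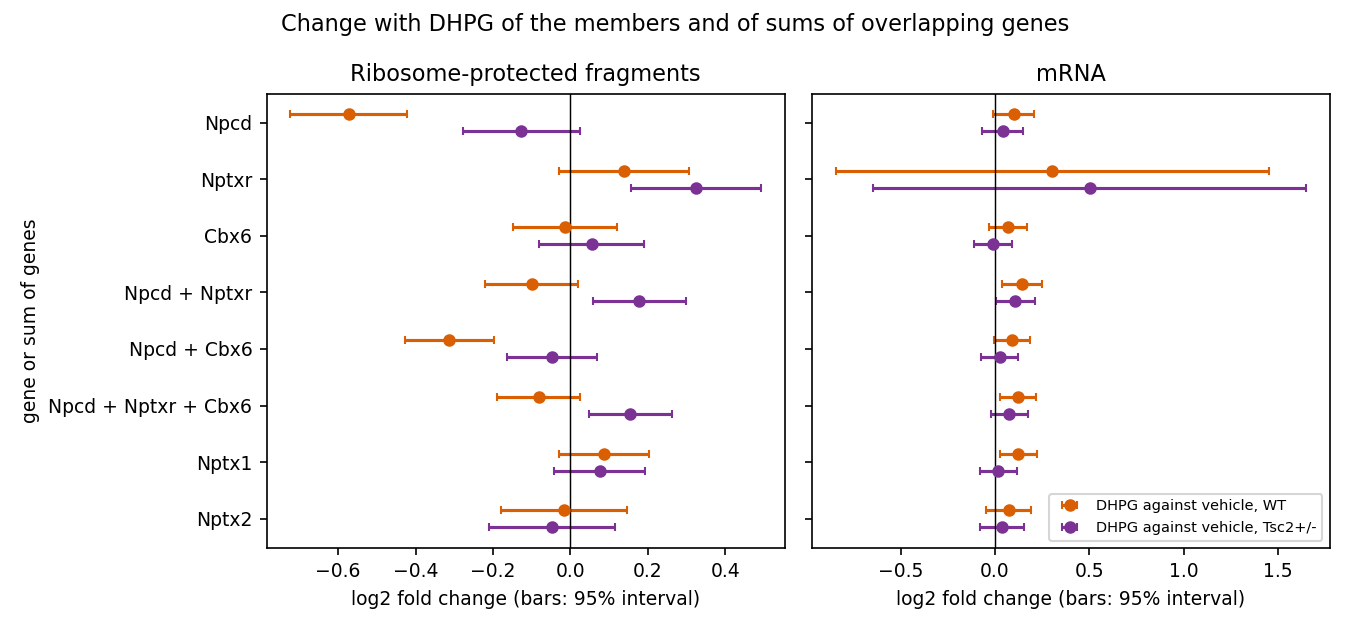
Log2 fold change of DHPG against vehicle in RPFs (left) and mRNA (right) for each member and for sums of the overlapping genes, in WT (orange) and Tsc2+/- (purple); points are fitted values and bars their 95% intervals, not adjusted for the number of genes. In RPFs Npcd in WT lies at -0.57 and Npcd with Nptxr at -0.10, and in mRNA the intervals of Nptxr are far wider than those of the other genes.

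Between genotypes, the RPF difference of Npcd in vehicle did not pass the threshold. The Tsc2+/- vehicle libraries (177 to 198 CPM) and the WT vehicle libraries (208 to 228 CPM) did not overlap, and the fitted difference, Tsc2+/- minus WT, was -0.23 on the log2 scale (SE 0.0735, adjusted p = 0.55). The WT vehicle libraries also enter the contrast by which Npcd was chosen, and so do the WT DHPG libraries. Choice by a fall with DHPG in WT favours a negative difference in vehicle and a positive one after DHPG. The RPF values of Npcd and of the 3-gene sum between genotypes are therefore descriptions, and their p-values are no independent test. The other members had log2 fold changes of -0.13 for Cbx6, -0.04 for Nptxr, 0.04 for Nptx2 and 0.01 for Nptx1. No member of the 5 was called by edgeR or DESeq2, against 3 of 12877 genes (0.0233%). At an unadjusted p under 0.05 were 1 member, Npcd, and 6.55% of all genes. After DHPG the Npcd difference had the opposite sign, 0.21 (SE 0.0744, adjusted p = 0.9995), and the libraries overlapped, at 154 to 191 CPM in Tsc2+/- and 139 to 155 CPM in WT. There 0 of 5 were called by edgeR or DESeq2, against 2 of 12877 genes (0.0155%), and 1, Npcd, had an unadjusted p under 0.05, beside 4.13% of all genes. Averaged over both treatments, 0 of 5 were called by edgeR or DESeq2, against 8 of 12877 genes (0.0621%). Here 1 member, Cbx6, had an unadjusted p under 0.05, beside 6.63% of all genes. The 3-gene sum differed between genotypes by -0.12 in vehicle (95% interval -0.23 to -0.01), by 0.12 after DHPG (95% interval 0.01 to 0.22) and by -0.0014 on average. In edgeR the adjusted p of the sum was 0.718 in vehicle and 0.9996 after DHPG, so neither passed.

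**Figure D4:**
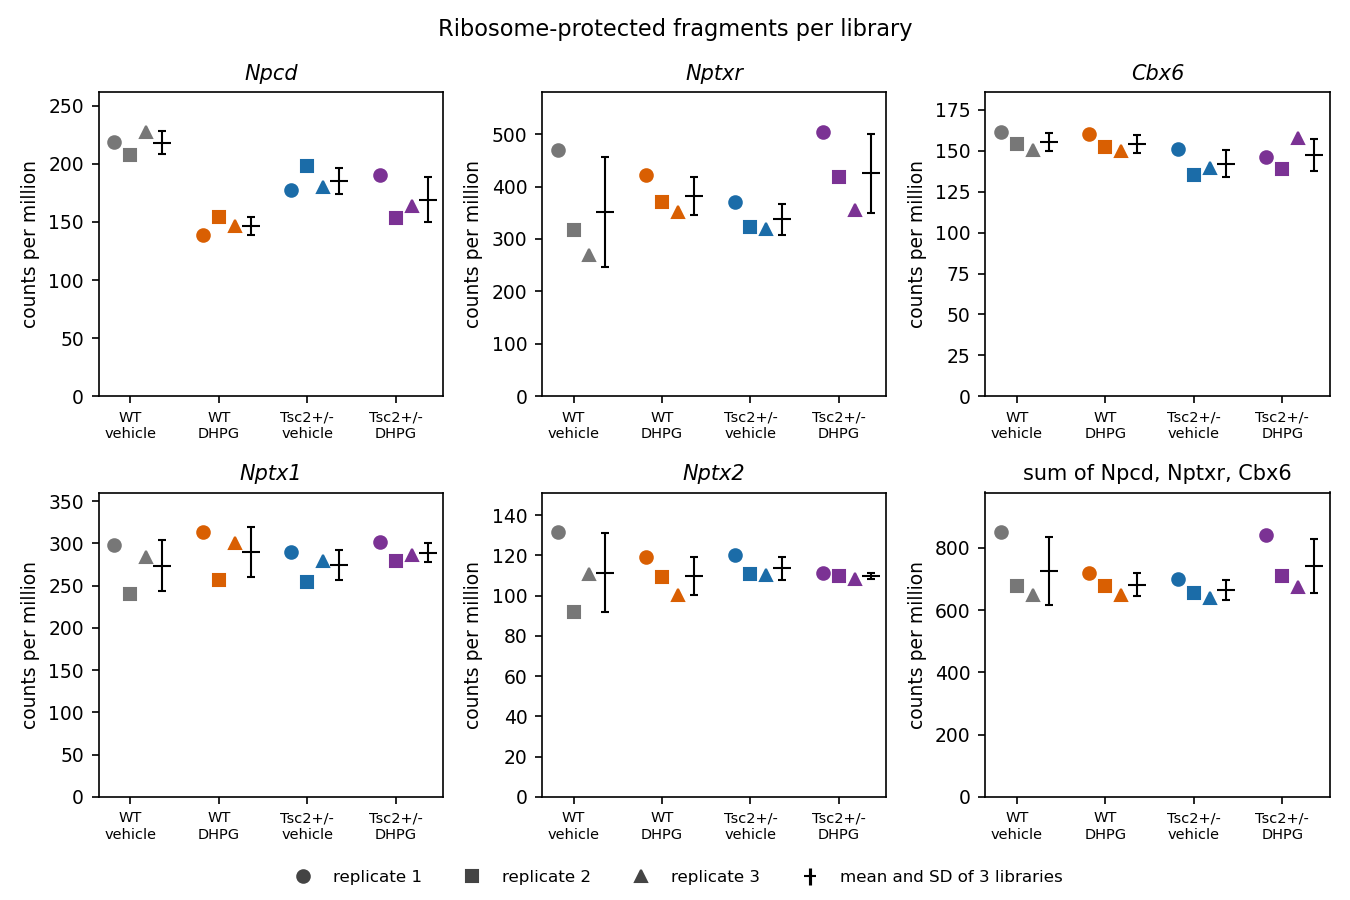
RPF CPM of each member and of the sum of Npcd, Nptxr and Cbx6 in every library, by group (symbols mark replicate numbers, bars the mean and SD of 3 libraries, axes start at 0). Npcd separates WT vehicle (208 to 228) from WT DHPG (139 to 155), Nptxr is highest in replicate 1 of every group, and Cbx6 stays between 135 and 162 throughout.

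In mRNA, Nptxr varied between libraries far more than any other member. It ran from 142 to 571 CPM, a 4.03-fold range, against 1.37-fold for Npcd, 1.204-fold for Nptx1, 1.19-fold for Cbx6 and 1.14-fold for Nptx2. Its biological coefficient of variation within groups was 39.0%, higher than that of 99.4% of the 14516 genes. That of the 3-gene sum was 4.72%, and that of Npcd with Cbx6, without Nptxr, was 4.77%. For Npcd with Nptxr it was 4.93%, and for Npcd alone 5.19%. Whether the Nptxr spread cancels within the locus was not tested. Nptxr mRNA was 272, 512 and 142 CPM with vehicle and 475, 453 and 220 CPM with DHPG in WT slices. In Tsc2+/- slices it was 419, 152 and 165 CPM with vehicle and 571, 241 and 228 CPM with DHPG. All 4 groups overlapped, while by replicate number Nptxr was higher with DHPG in 2 of 3 pairs in WT and 3 of 3 in Tsc2+/-. Across libraries Nptxr and Npcd mRNA were inversely related (Pearson's r = -0.52 over 12 libraries, and -0.38 after the mean of each replicate number was removed), a description over 2 rows that divide the same reads. In RPFs the same values were -0.27 and -0.44. Npcd and Nptx1, which share no reads, had -0.315 and -0.663 in RPFs and 0.409 and 0.717 in mRNA. Npcd and Nptx2, which share no reads either, had 0.074 and 0.072 in RPFs and 0.083 and -0.016 in mRNA. An inverse relation of Npcd in RPFs was thus seen with Nptx1 but not with Nptx2, and its cause was not tested.

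DHPG changed no member's mRNA past the threshold. In WT slices the log2 fold change of Npcd mRNA was 0.10 (SE 0.0536), with 1356, 1459 and 1472 CPM in vehicle and 1456, 1484 and 1653 CPM in DHPG. That of Nptx1 was 0.12 (SE 0.0478, adjusted p = 0.725), that of Cbx6 0.07, that of Nptx2 0.07 and that of Nptxr 0.30 (SE 0.474, adjusted p = 0.958). The Nptxr value became 0.72 with an adjusted p of 0.00033 without replicate 2, within a range of 0.00033 to 0.9995 over the alternatives. In edgeR and in DESeq2, 0 of 5 members were called in WT, and in edgeR 0 of 14516 genes (0%). Without the WT vehicle library of replicate 2 that count of genes was 112. Nptx1 was the 1 member with an unadjusted p under 0.05, beside 6.45% of all genes. In Tsc2+/- slices the changes were 0.04 for Npcd, 0.02 for Nptx1, -0.01 for Cbx6, 0.04 for Nptx2 and 0.50 for Nptxr, again with 0 of 5 members called by edgeR or DESeq2, 0 of 5 at an unadjusted p under 0.05, and 0 of 14516 genes (0%) called in edgeR. Averaged over genotypes, 0 of 5 were called by edgeR or DESeq2, against 3 of 14516 genes (0.0207%), and 1, Nptx1, had an unadjusted p under 0.05. Of all genes, 7.49% had such a p on average and 4.32% in Tsc2+/- slices. Nptxr passed in Tsc2+/- slices only when the compared groups were fitted alone (0.53, adjusted p = 4.44e-08). The 3-gene sum differed by 0.12 in WT slices (95% interval 0.02 to 0.22) and by 0.08 in Tsc2+/- slices (95% interval -0.02 to 0.17). Its edgeR adjusted p was 0.723 in WT and 0.99996 in Tsc2+/- slices.

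Between genotypes in vehicle, the fitted mRNA difference of Npcd, Tsc2+/- minus WT, was 0.18 on the log2 scale (SE 0.0535, adjusted p = 0.757), the opposite sign to that in RPFs. Its libraries overlapped, at 1396, 1854 and 1634 CPM in Tsc2+/- vehicle. After DHPG it was 0.12 (SE 0.0535, adjusted p = 0.997), and averaged over both treatments 0.15 (SE 0.0379, adjusted p = 0.12). The 3-gene sum differed by 0.09 in vehicle (95% interval -0.01 to 0.19), by 0.04 after DHPG (95% interval -0.05 to 0.14) and by 0.07 on average. Nptx1 mRNA differed in vehicle by 0.14 (SE 0.0477, adjusted p = 0.92), and Nptxr mRNA by -0.36 (SE 0.487, adjusted p = 0.991). Without replicate 2 the Nptxr difference turned to 0.42 with an adjusted p of 0.0838. Of the 5 members, 0 were called in vehicle by edgeR or DESeq2, against 13 of 14516 genes (0.0896%). At an unadjusted p under 0.05 were 2 members, Npcd and Nptx1, and 4.9% of all genes. After DHPG 0 were called against 7 of 14516 genes (0.0482%), with 1, Npcd, at an unadjusted p under 0.05, beside 4.64% of all genes. Averaged over treatments 0 were called against 33 genes (0.227%), with 2, Npcd and Nptx1, at such a p, beside 6.12% of all genes.

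**Figure D5:**
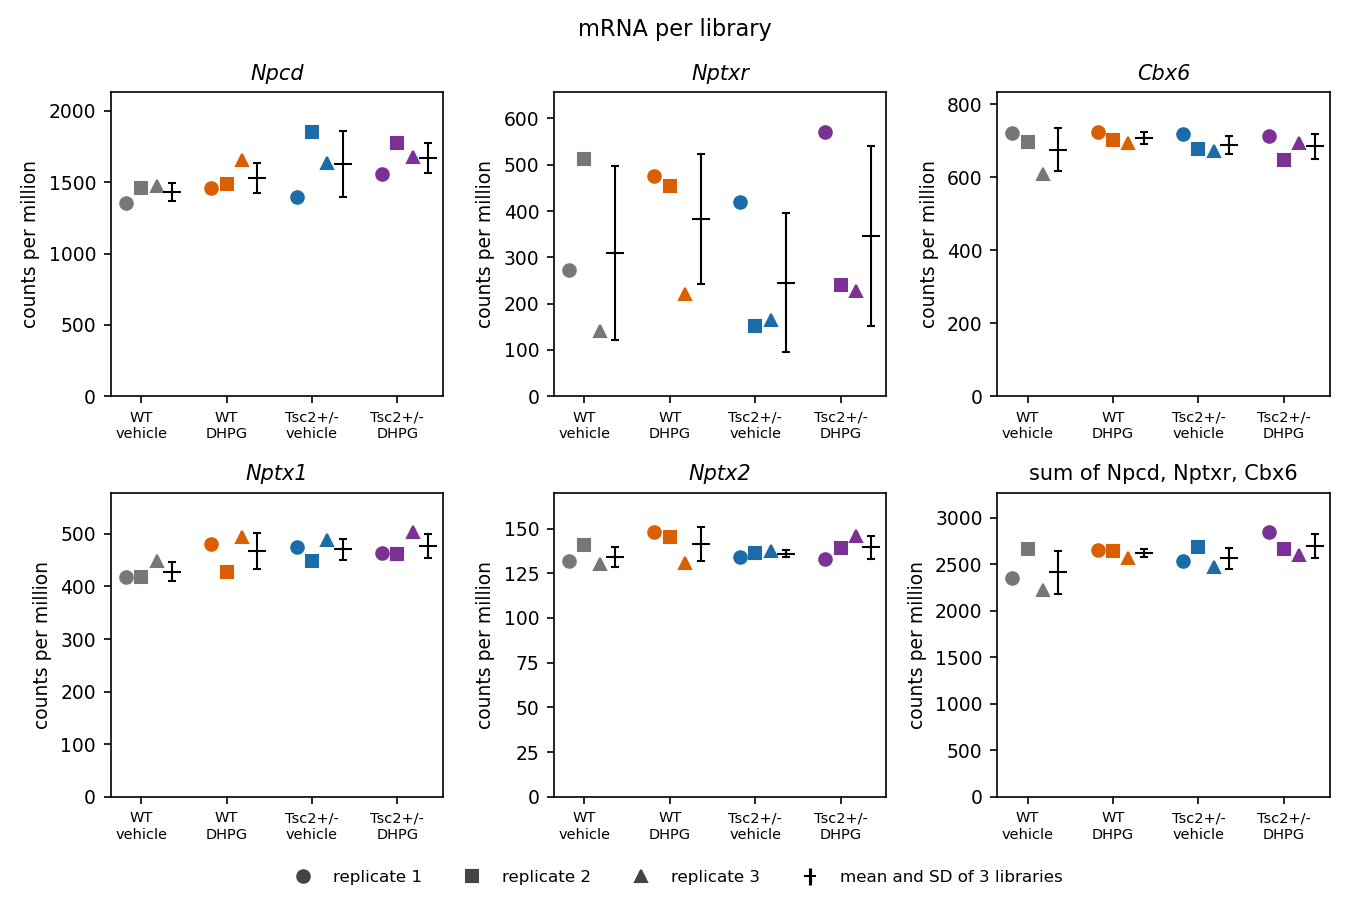
mRNA CPM of each member and of the sum of Npcd, Nptxr and Cbx6 in every library, by group (symbols mark replicate numbers, bars the mean and SD of 3 libraries, axes start at 0). Nptxr spreads from 142 to 571 with all groups overlapping, while Nptx2 stays between 130 and 148.

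The per-length ratio of RPF to mRNA of Npcd in WT slices was 0.552 ± 0.0343 with vehicle and 0.347 ± 0.0276 with DHPG (SD, n = 3). In Tsc2+/- slices it was 0.414 ± 0.0389 with vehicle and 0.369 ± 0.066 with DHPG. WT vehicle was thus the highest group and did not overlap the other 3. The fitted TE change of Npcd with DHPG in WT was -0.67 (SE 0.0966), given without a test, and that of the 3-gene sum was -0.21 (95% interval -0.35 to -0.06). Of the other 4 members, 0 had an unadjusted p under 0.05, beside 9.06% of all genes. By edgeR or DESeq2 0 of these 4 were called, while edgeR called 7 of 12785 genes (0.0548%). That count of genes was 0 without replicate 3, 50 without replicate 2 and 101 in DESeq2. Between genotypes in vehicle the TE difference was -0.41 for Npcd (SE 0.0964, edgeR adjusted p = 0.425). For the 3-gene sum it was -0.21 (95% interval -0.35 to -0.06, edgeR adjusted p = 0.814). The WT vehicle RPF libraries by which Npcd was chosen enter both values, so these are no independent test. No member of the 5 was called between genotypes in vehicle by edgeR or DESeq2, nor were any of 12785 genes by edgeR (0%). At an unadjusted p under 0.05 were 2 members, Npcd and Cbx6, and 5.76% of all genes. In WT vehicle slices the ratio was 2.73 ± 0.298 for Nptx1, 1.73 ± 0.356 for Nptx2 and 1.06 ± 0.064 for Cbx6, and 4.93 ± 2.43 for Nptxr, where the mRNA spread above enters the ratio.

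The share of the locus count given to Npcd was lower after DHPG in RPFs, a value that rests on the same Npcd counts and is given without a test. Of the reads in Npcd, Nptxr and Cbx6, Npcd held 30.5% ± 4.72 with vehicle and 21.6% ± 2.02 with DHPG in WT slices (SD, n = 3). The Tsc2+/- slices had 27.9% ± 2.46 with vehicle and 22.8% ± 1.28 with DHPG. In both genotypes the vehicle and DHPG libraries did not overlap, with 25.7% to 35.1% against 19.2% to 22.8% in WT and 25.4% to 30.3% against 21.6% to 24.2% in Tsc2+/-. In mRNA the shares were 59.5% ± 5.95, 58.5% ± 5.15, 63.4% ± 7.36 and 62.0% ± 6.31 in the same order, and all groups overlapped. Between genotypes, with 6 libraries against 6, the share in RPFs differed by -0.633 percentage points (two-sided exact permutation test, p = 0.827) and in mRNA by 3.70 points (p = 0.279). Adjusted over the 6 share comparisons made, p was 0.827 for both. The RPF share is built from the Npcd counts that chose the set, so its p is no independent test. The permutations also did not keep the treatments apart. In RPFs the mean share in Tsc2+/- was below that in WT with vehicle and above it after DHPG, so the averaged difference describes neither treatment.

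Nptx1 and Nptx2, whose reads fit no other member, showed no called change. Nptx1 RPFs were 298, 240 and 284 CPM with vehicle and 313, 257 and 301 CPM with DHPG in WT slices, and 289, 254 and 279 CPM with vehicle and 301, 279 and 287 CPM with DHPG in Tsc2+/- slices. All groups overlapped, while Nptx1 was higher with DHPG in 3 of 3 pairs of the same replicate number in each genotype. The log2 fold change with DHPG was 0.09 in WT (95% interval -0.03 to 0.20, edgeR adjusted p = 0.796) and 0.08 in Tsc2+/- (95% interval -0.04 to 0.19, adjusted p = 0.9999). Nptx2 RPFs lay between 92.1 and 132 CPM over all 12 libraries, with changes of -0.02 in WT (95% interval -0.18 to 0.15) and -0.05 in Tsc2+/- (95% interval -0.21 to 0.11). Nptx2 mRNA lay between 130 and 148 CPM, with changes of 0.07 (95% interval -0.05 to 0.19) and 0.04 (95% interval -0.08 to 0.15). These values are for the 5 min time point sampled.

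Genes that work with these members were followed as fixed lists. Of the 13 synaptic partners of the pentraxins, among them the AMPA receptor subunits and the C1q genes, all 13 were tested in both assays and 0 were called higher or lower with DHPG in WT or between genotypes in vehicle. In WT slices with DHPG, the genes with an unadjusted p under 0.05 were 864 of 12877 (6.71%) in RPFs and 936 of 14516 (6.45%) in mRNA, and those called were 4 and 0. Of the 13 partners, 1 had such a p in RPFs and 2 in mRNA, and the median log2 fold change was -0.04 in RPFs, against -0.0019 over all genes. The most abundant of them in RPFs were Gria2, with a change of 0.03 (SE 0.0481), Gria1, with -0.06 (SE 0.0472), and Gria3, with 0.07 (SE 0.057), all subunits of the AMPA receptor. Of 17 further genes of Polycomb repressive complex 1, 16 were tested in RPFs and 17 in mRNA, 0 were called in either contrast, and 1 had an unadjusted p under 0.05 with DHPG in each assay. Rnf2, which encodes a ubiquitin ligase of that complex, was the most abundant in RPFs, with a change of 0.13 (SE 0.0788, adjusted p = 0.783), and Phc2, which encodes another member of the complex, had a change of 0.15. Of the 3 other chromobox genes, which encode heterochromatin proteins, 0 were called, with 0 in RPFs and 1 in mRNA, Cbx3 (-0.20, adjusted p = 0.712), at an unadjusted p under 0.05 with DHPG.

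Pentraxins other than the members were low. Of 6 such genes 3 were at 0 in every mRNA library, and their summed mRNA ranged from 2.81 to 7.50 CPM. Ptx3, the long pentraxin, was the 1 gene tested, with a change with DHPG in WT of 0.31 in RPFs (SE 0.151, adjusted p = 0.731). Of 13 activity-induced genes, all tested, 0 were called in mRNA or RPFs with DHPG in WT, and 2 had an unadjusted p under 0.05 in each assay, beside the 6.71% of all genes in RPFs and 6.45% in mRNA. Egr1 and Fos encode transcription factors, and their RPF differences were 0.03 (SE 0.0651) and -0.14 (SE 0.0621, adjusted p = 0.708). The mRNA difference of Egr1 was 0.06 (SE 0.0588).

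The genes whose pattern over the 12 RPF libraries was most like that of Npcd, after the mean of each replicate number was removed on the log2 scale, were Diap1 (Pearson's r = 0.961) and Rapgef2 (0.932). A gene alike to Nptxr in RPFs was Pgrmc1 (0.897). The most alike were, for Cbx6, Mtss1 (0.908) and Tns1 (0.905), for Nptx1 Ubald1 (0.892) and Eya3 (0.892), and for Nptx2 Tkt (0.963) and Idnk (0.944). In mRNA the nearest genes were Tomm34 (0.919) and Slitrk1 (0.916) for Npcd, BC037034 (0.944) and Egr4 (0.944) for Nptxr, Arhgap31 (0.962) and Socs7 (0.948) for Cbx6, Gaa (0.959) and Smarca4 (0.953) for Nptx1, and Adra1d (0.882) and Cdc42se1 (0.879) for Nptx2. These values are descriptions over 3 replicates of 4 groups, taken as the highest among 10572 genes in RPFs and 10870 in mRNA.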

How the data were processed

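The labels and the study's methods state that RSEM counted reads that mapped to mm10, and the deposited values are RSEM expected counts per gene (estimated counts, here all whole numbers). RSEM divides reads that fit several genes, so a change in 1 overlapping row can move reads to or from another. RPF counts were made on coding sequence trimmed by 30 nt at each end. The authors' tools, per the labels, were cutadapt, Bowtie2, TopHat2, RSEM and DESeq2.

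For each assay, 12 libraries (3 per group) were fitted in edgeR 4.0.16 (R 4.3.3) with filterByExpr (minimum count 10), TMM scaling, group and replicate number as terms, and a robust quasi-likelihood F-test. Genes were called at a Benjamini-Hochberg adjusted p under 0.1 over all genes tested. TE was the interaction of assay and group over 24 libraries. By the study's methods, each lysate was divided between mRNA and RPF libraries. The TE fit had no term for the lysate, so its SEs and p-values do not use that pairing. Counts of the locus were summed per library and fitted as 1 row. CPM used TMM library sizes. Intervals are 95%. In simulated data for DHPG in WT, changes were given to a small part of the 12793 RPF genes fitted, drawn from the more abundant ones. Changes of 0.5 on the log2 scale were called in 81% of cases and changes of 1 in 99%. The simulated levels held no replicate effect, and low-count genes were not among those changed. Alternatives were DESeq2 1.42.0, its size factors, ComBat from sva 3.50.0, no filter, no replicate term, fewer groups and left-out libraries. Named genes were the 5 members, the most abundant genes of each list (3 per assay at most) and the 2 most alike per member and assay. A few genes that this rule names are not reported here. The members and lists were chosen with earlier results of these data known. Replicates are separate pools of slices as labelled, and p-values measure the spread between them.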

Additional observations from a re-analysis of the deposited data

How the results depend on the processing

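Over 34 values of single members and 697 alternative fits, 652 kept the sign and side of the threshold. The replicate block (replicate number as a term) is part of the fits reported. The labels do not state whether a number marks a shared batch. Deviations of same-numbered libraries correlated at 0.0228 to 0.143 in mRNA (median 0.0646) and 0.033 to 0.263 in RPFs (median 0.0961). For differently numbered libraries the values were -0.126 to 0.024 (median -0.033) and -0.194 to 0.0667 (median -0.0598). Same-numbered libraries thus deviated together slightly more than others, and the cause was not tested. Without the block the Npcd RPF change with DHPG in WT was -0.57 and its TE change -0.67, both as values with no test, and the number of members called did not change in any comparison of groups run both ways. The number of genes called in RPFs with DHPG in WT was 4, but 2 without the block, 2 after ComBat with DESeq2, 1 to 26 with a library or replicate left out (26 without the WT vehicle library of replicate 2), 14 in DESeq2, 21 without the filter, 37 with only the compared groups and 9 with the even libraries halved. For averaged DHPG in RPFs it was 4, and 1 without the block, 15 in DESeq2, 25 without the filter and 0 to 25 with a library or replicate left out. In TE with DHPG in WT it was 7, and 1 without the block, 101 in DESeq2 and 0 to 50 with a replicate left out. In mRNA it was 0 with DHPG in WT, 6 without the filter and 0 to 112 with a library or replicate left out (112 without the WT vehicle library of replicate 2). For averaged DHPG in mRNA it was 3, and 26 in DESeq2, 15 without the filter and 0 to 44 left out in the same way. Between genotypes in vehicle the count was 13 in mRNA (6 to 31 over the alternatives) and 3 in RPFs (2 to 13), after DHPG 7 (4 to 17) and 2 (2 to 47), and on average 33 (16 to 63) and 8 (3 to 69).

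With a library or replicate left out, the number of members called ranged from 0 to 1 in mRNA for DHPG in WT, for averaged DHPG and for genotype in vehicle. In RPFs it ranged from 1 to 2 for DHPG in WT, 0 to 1 for DHPG in Tsc2+/- and 0 to 2 for averaged DHPG, and in TE from 0 to 1 for DHPG in WT. With only the compared groups fitted, 1 member (Nptxr) was called for DHPG in Tsc2+/- in mRNA and 1 in RPFs. For averaged DHPG in RPFs, 2 were called in DESeq2 and 2 without the filter. These counts include Npcd in the DHPG contrasts, where its own values chose it, so they are no test of Npcd. The Npcd value for averaged DHPG in RPFs was -0.33 without replicate 2 and -0.33 without replicate 3, and its TE value in WT was -0.61 without replicate 3. The cause was not tested.

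Signs turned only for changes within the ranges that follow, given as the lowest and highest value with a library or replicate left out. For genotype in vehicle these were, in mRNA, -0.031 to 0.072 for Cbx6, -0.84 to 0.42 for Nptxr and -0.012 to 0.052 for Nptx2, and in RPFs -0.032 to 0.034 for Nptx1, -0.17 to 0.13 for Nptxr and -0.085 to 0.14 for Nptx2. For DHPG in WT they were -0.026 to 1.012 for Nptxr mRNA, -0.041 to 0.0087 for Cbx6 RPFs and -0.14 to 0.077 for Nptx2 RPFs. For DHPG in Tsc2+/- they were, in mRNA, -0.054 to 0.031 for Cbx6, -0.025 to 0.13 for Npcd and -0.021 to 0.073 for Nptx2, and in RPFs -0.019 to 0.11 for Cbx6 and -0.096 to 0.020 for Nptx2. The genotype difference in the Npcd share ranged from -0.65 to 6.20 points in mRNA and from -1.73 to 0.40 points in RPFs, and was 1.42 points in RPFs over Npcd and Cbx6 alone. The 3-gene RPF sum with DHPG in WT ranged from -0.12 to -0.0027. Reads over the junction that only Npcd holds cannot be counted from gene totals.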
